A study of Homo sapiens with 45 samples.

Results

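CDK10 and ETS2 are 2 of the 15698 genes whose expression was measured by RNAseq in HCT116-VR cells, and both rows were found by matching their Ensembl identifiers to gene symbols. HCT116 is a colorectal cancer cell line, and HCT116-VR is a subline of it selected for resistance to the histone deacetylase inhibitor vorinostat. Cells received lipid alone (mock) or 1 of 14 siRNA pools at 40 nM, among them siCDK10, and were harvested after 48 h. Each of these 15 conditions had 3 libraries from independent biological experiments, giving 45 libraries in all. The control was lipid alone and not a non-targeting siRNA, so a response to siRNA as such cannot be told apart from a response to loss of the target in any comparison with mock.

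CDK10 is a kinase of the cyclin-dependent family and is activated by cyclin M, the product of CCNQ. ETS2, a transcription factor with the DNA-binding domain that defines the ETS family, is a known substrate: phosphorylation by CDK10 with cyclin M promotes its degradation, and loss of CDK10 is known to raise ETS2 protein. RNAseq reads the transcripts of both genes and not the phosphorylation or the amount of either protein.

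The deposited columns carry library numbers, and the sample list in the supplement of the study is what joins these numbers to conditions. CDK10, the target of siCDK10, went against this list. Conditions are therefore given by their listed names throughout. No library was moved to another condition because of its values or its place in the table, and no statement about what CDK10 knockdown did to ETS2 can be made from these names. The libraries held 7569592 to 21149597 reads on the genes in the table (median 11551126), with 10245572 to 14440044 in the 3 listed as siCDK10 and 10792701 to 13039270 in the 3 listed as mock. Of 6 colorectal epithelial markers looked up, EPCAM, KRT8, KRT18 and CDX2 stood at 3.71 or higher on the log2 scale in all 45 libraries, while KRT20 and VIL1 are not among the genes in the table.

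CDK10 (ENSG00000185324) is a protein-coding gene of the + strand of chromosome 16, with start 89747145 and end 89762762 in GRCh37. Its exons merge into 15 regions that cover 6779 bp. ETS2 (ENSG00000157557), also protein coding and on the + strand, has its start at 40177107 and its end at 40196879 of chromosome 21, and its 15 exon regions cover 4977 bp. An antisense lncRNA, ENSG00000205622, overlaps 2.25% of the exonic length of ETS2, and a lncRNA on the same strand, ENSG00000275734, overlaps 2.70% of that of CDK10. The antisense LINC02166 lies within CDK10 and overlaps 0 bp of its exons. No strand setting of the counting is given in the sources used here, so reads of overlapping exons cannot be assigned with certainty.

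CDK10 was low in 3 libraries, and none of them is listed as siCDK10. With the list in doubt, these names do not show that another siRNA lowered CDK10 or that siCDK10 failed to. The library listed as siNFYA replicate 2 had 12 reads of CDK10 (95% exact Poisson interval 6.20 to 21.0), that listed as siCCNK replicate 2 had 29 reads (19.4 to 41.6) and that listed as siJAK2 replicate 2 had 27 reads (17.8 to 39.3). Such intervals cover counting error only. On the normalised log2 scale, which is log2 CPM (reads scaled to a common library size), these libraries were at 0.37, 1.25 and 1.38, and the fourth lowest library, listed as siSAP130 replicate 2, was at 3.32. The step of 1.94 between the third and the fourth was the largest between any neighbouring libraries, and the other 42 lay between 3.32 and 4.51 (median 3.94, SD 0.29).

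The libraries listed as siCDK10 replicates 1, 2 and 3 had 188, 160 and 271 reads of CDK10, or log2 values of 4.17, 3.63 and 4.18. Those listed as mock replicates 1, 2 and 3 had 220, 144 and 164 reads, or 4.30, 3.41 and 3.95. The 2 sets of values overlapped, and all 3 libraries listed as siCDK10 lay within the range of those listed as mock. Each of the 6 lay well above the 3 low libraries, and in the 42 libraries not listed as siCDK10 the median was 166.5 reads (range 12 to 420).

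A single Limma fit over 15695 genes set the libraries of every listed siRNA against those listed as mock. Calls needed a log2 difference of 1 or more in either direction and, after Benjamini-Hochberg adjustment, a p-value below 0.05. In the comparison listed as siCDK10, 0% of the genes were called, and 90 genes (0.573%) had an unadjusted p-value under 0.05 (Limma). That count was 640 without the library listed as mock replicate 2 and 61 without mock replicate 3. As CDK10 went against the list, these counts do not measure the response to CDK10 knockdown. The mean of CDK10 was 3.99 ± 0.32 (SD, n = 3) under the name siCDK10, against 3.89 ± 0.45 (SD, n = 3) under the name mock. The log2 difference was 0.10 (standard error 0.60, 95% interval -1.12 to 1.33), with an adjusted p of 1 (Limma with Benjamini-Hochberg adjustment). CDK10 ranked 10285 of 15695 genes ordered from the most lowered. Without the library listed as mock replicate 2 the difference was -0.14.

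**Figure D1:**
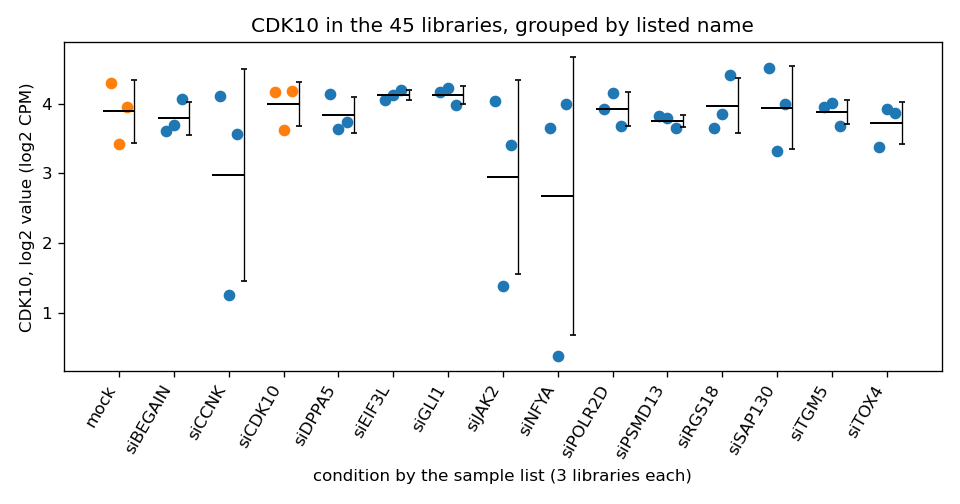
Normalised expression of CDK10 (log2 CPM, vertical axis) in each library, by listed condition (horizontal axis); points are libraries, with those listed as mock and siCDK10 in orange, short lines are means and bars are the SD of 3 libraries. The libraries at 0.37, 1.25 and 1.38 stand below all others and are listed as siNFYA, siCCNK and siJAK2.

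Over the 15 listed conditions, the lowest means of CDK10 were those listed as siNFYA (2.67 ± 2.00), siJAK2 (2.94 ± 1.39) and siCCNK (2.98 ± 1.52; SD, n = 3 in each). Each of these means rests on 1 library, as the SD shows. The other 12 means ran from 3.72 (siTOX4) to 4.13 (siGLI1), and neighbours in that order did not differ beyond their spread. Of the 14 log2 differences against listed mock, 8 were below 0 and 6 above 0, from -1.22 (siNFYA, unadjusted p = 0.051, adjusted p = 0.988, Limma) to 0.24 (siGLI1, adjusted p = 0.989, Limma). None was called, where 0% of all genes were called in each of the 14 comparisons. With no calls for any gene, the lack of a call does not show that CDK10 was unchanged. The SD of CDK10 within listed conditions, pooled over the 15, was 0.79, the same as its SD over all 45 libraries. As listed replicates need not be replicates of the same condition, this does not show that CDK10 was alike across conditions. Counting error at the median of 167 reads gives a SD of about 0.11 on this scale.

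ETS2 varied little over the 45 libraries. It ranged from 4.82 to 5.93 on the log2 scale (median 5.50, SD 0.25), with 336 to 1203 reads (median 520), and counting error at the median gives a SD of about 0.063. By SD it ranked 13320 of the 15698 genes from the most variable, where CDK10 ranked 1919. Per kb of exon, the median level was 3.19 on the log2 CPM scale for ETS2 and 1.17 for CDK10, with exon lengths from GENCODE release 44, which is not the annotation that the reads were counted with.

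The libraries listed as siCDK10 replicates 1, 2 and 3 had 425, 645 and 528 reads of ETS2, or log2 values of 5.35, 5.63 and 5.14. Those listed as mock had 374, 619 and 531 reads, or 5.07, 5.51 and 5.65. All 3 libraries listed as siCDK10 again lay within the range of those listed as mock. ETS2 was at 5.37 ± 0.25 (SD, n = 3) in the former and 5.41 ± 0.30 (SD, n = 3) in the latter, a log2 difference of -0.035 (standard error 0.20, 95% interval -0.45 to 0.38, adjusted p = 1, Limma with Benjamini-Hochberg adjustment). None of the 3 libraries lowest in CDK10 is in either set, so this difference does not measure the response of ETS2 to CDK10 knockdown. Leaving out 1 library turned the direction of the difference in 3 cases, with 0.080 without siCDK10 replicate 3, 0.018 without mock replicate 2 and 0.084 without mock replicate 3.

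**Figure D2:**
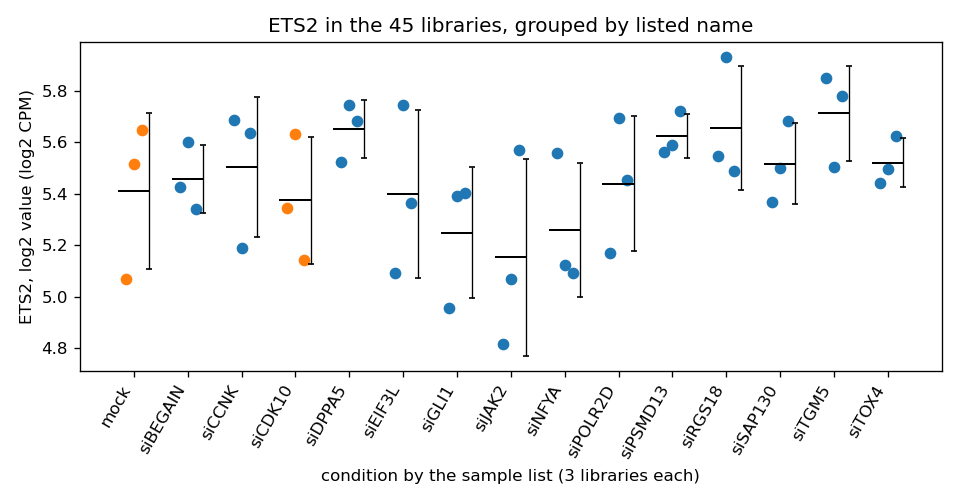
Normalised expression of ETS2 (log2 CPM, vertical axis) in each library, by listed condition (horizontal axis); points are libraries, with those listed as mock and siCDK10 in orange, short lines are means and bars are the SD of 3 libraries. All values lie between 4.82 and 5.93, and the 3 libraries listed as siCDK10 lie within the range of those listed as mock.

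Over the listed conditions, the means of ETS2 ran from 5.15 ± 0.38 (siJAK2) to 5.71 ± 0.18 (siTGM5; SD, n = 3 in each). Of the 14 differences against listed mock, 9 were above 0 and 5 below 0, and they ran from -0.26 (siJAK2, adjusted p = 1.00, Limma) to 0.30 (siTGM5, standard error 0.20, adjusted p = 0.712, Limma). None was called, and 0 of the 14 had an unadjusted p-value under 0.05. As no gene was called in any listed comparison, the lack of a call does not show that ETS2 was unchanged. All 14 comparisons share the libraries listed as mock, which span 5.07 to 5.65. Without mock replicate 1 the 2 ends of this range were -0.43 and 0.13, and without mock replicate 3 they were -0.14 and 0.42. The SD of ETS2 within listed conditions was 0.24, against 0.25 over all libraries. As listed replicates need not be replicates of the same condition, this does not show that ETS2 was alike across conditions.

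Values in single libraries can be set side by side whatever their names. In the 3 libraries with the fewest CDK10 reads, ETS2 was at 5.13 (listed as siNFYA replicate 2), 5.19 (siCCNK replicate 2) and 5.07 (siJAK2 replicate 2), with 336, 453 and 354 reads. Each lay below the median of 5.50, and in order from the lowest of the 45 they stood at places 7, 10 and 4. The 7 other libraries of the lowest 10 had CDK10 at 3.93 or more, among them the library lowest in ETS2, listed as siJAK2 replicate 1 (4.82, 336 reads). These 3 libraries are all listed as replicate 2, but under 3 different siRNAs. They were singled out by their CDK10 values, so no mean or test was taken over them. In the other 42 libraries the correlation of CDK10 with ETS2 was -0.36 (Pearson) and -0.39 (Spearman), and -0.37 and -0.39 without the 2 libraries farthest from the median of CDK10. These are descriptions without a p-value, since the libraries share experiments and, by design, triplicate conditions that the names do not recover, and so are not independent. The 3 libraries left out were low in both genes, against the negative direction of these correlations. No correlation over all 45 was taken.

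**Figure D3:**
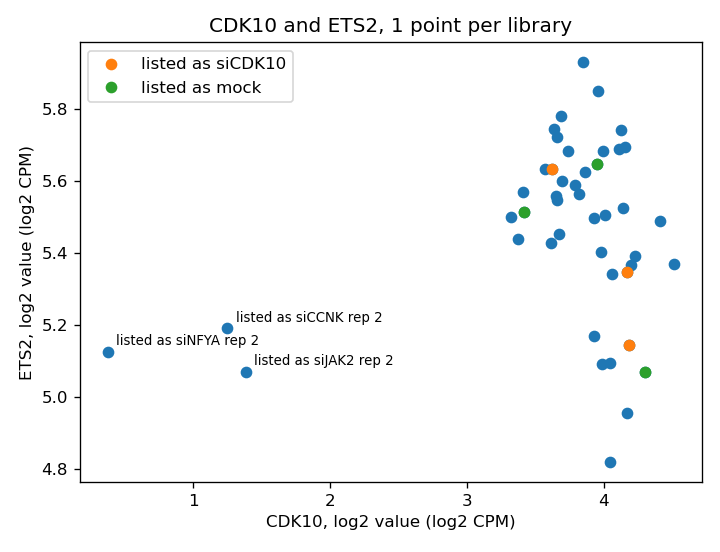
CDK10 (horizontal axis) against ETS2 (vertical axis), both in log2 CPM, with 1 point per library; libraries listed as siCDK10 are orange, those listed as mock green and the rest blue. The 3 libraries below 1.5 in CDK10 lie between 5.07 and 5.19 in ETS2, and the libraries listed as siCDK10 lie among the other 42.

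The partner of CDK10 was not analysed here: the 1 identifier of CCNQ in GENCODE release 44 did not match a row, and whether the reads were counted under another identifier of this gene is not known. The ETS family was. Of 28 ETS family genes, 18 are in the table and 10 are not (ERG, FLI1, FEV, ETV2, ETV3L, ELF5, SPDEF, SPI1, SPIB and SPIC). Per kb of exon, ELK1, a partner of serum response factor that is phosphorylated by MAP kinases, had the highest median (4.57 on the log2 CPM scale), followed by ERF, a repressor of the family (4.43), and the epithelial factor EHF (4.42). ETS2 was the 9th of the 18. ETS1, the closest relative of ETS2, was at 0.030, and ETV7 was the lowest at -2.46, with 0 to 24 reads per library. These levels use exon lengths from GENCODE release 44.

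ETS2 was among the steadiest of these genes, the 4th lowest of 18 by SD. The median SD of the family was 0.40, as for all genes in the table (0.40). ETS1 spanned 1.04 to 5.07 on the log2 CPM scale (SD 0.88, 22 to 368 reads), and ETV4, a member of the PEA3 group, spanned 3.13 to 6.69 (SD 0.77, 74 to 1433 reads). ELK3, a ternary complex factor like ELK1, spanned 5.23 to 7.73 (SD 0.69). Except for ETV7 (SD 1.18), which was close to the limit of the depth, no other member had a higher SD than these.

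**Figure D4:**
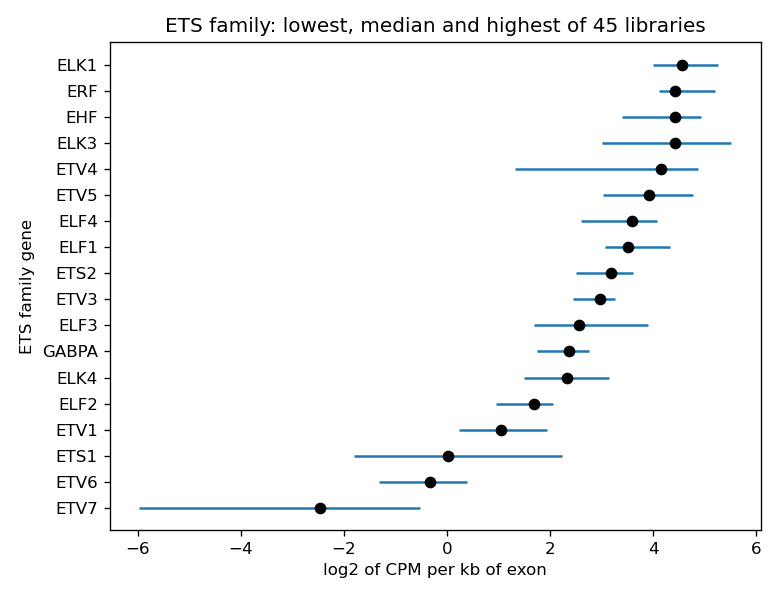
Level of the 18 ETS family genes in the table (vertical axis) as log2 of CPM per kb of exon (horizontal axis); dots are medians over 45 libraries and lines run from the lowest to the highest library. ETS2 has its median at 3.19 and one of the shorter lines, while ETS1, ETV4, ELK3 and ETV7 have the longest.

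In the comparison listed as siCDK10, 0 of the 18 family members were called, against 0% of all genes, and 0 had an unadjusted p-value under 0.05 (Limma). The log2 difference was above 0 for 5 and below 0 for 13, with a median of -0.090 where that of all genes was 0.012. The values ran from -0.30 for ELK3 (standard error 0.58) to 0.30 for ETV1 (standard error 0.37), each with an adjusted p of 1 (Limma with Benjamini-Hochberg adjustment). Over the 14 listed comparisons, 0 calls were made for the family. With names that CDK10 went against, these values do not show how the family responds to CDK10 knockdown.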

How the data were processed

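RNA from 45 libraries was sequenced as single-end reads. The submitters' processing notes name CASAVA 1.8.2, TopHat 1.4.1, HTSeq and limma. The authors aligned reads to GRCh37, counted reads for the genes in Ensembl release 67, normalised the counts with EdgeR and Limma-Voom, and deposited log2 values (log2 CPM) for 15698 genes. The filter that left these genes is not given in the sources used here. Whole reads were recovered by setting 0 reads at the minimum of each column, with 0.5 reads added to each count, and 100% of values lay within 0.001 of a whole number.

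Columns were joined to samples by the 2 sample lists of the supplement. Sets of 3 adjacent columns were not used as conditions. The members and lists were chosen with earlier results of these data known. Named genes are CDK10, ETS2, CCNQ and the ETS family; the epithelial markers and the gene called in 1 alternative were chosen after values were seen.

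Tests were made in R 4.3.3 with limma 3.58.1 (lmFit, then eBayes with a trend) on the log2 values of the 15695 genes that reached -1 in 3 or more libraries, with 30 residual degrees of freedom. The p-values, standard errors and intervals rest on the spread between listed replicates. Because CDK10 went against the list, listed replicates need not be replicates of the same condition. On simulated reads for siCDK10 minus mock (15634 genes), 200 of 200 changed genes were called, with 3 false calls. The simulated libraries of a condition shared the same expected level of each gene. This check therefore does not show what the fit calls where the names go against the values. Values and plots used Python 3.11.15, pandas 2.3.3, scipy 1.17.1 and matplotlib 3.10.9. Symbols and coordinates are of GENCODE release 44 on GRCh37, which names 15366 genes.

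Deviations of same-numbered libraries from their group means correlated at 0.21, 0.83 and 0.17 between listed siCDK10 and mock, and at a median of -0.00035 over the 315 same-numbered pairs of all listed conditions (-0.57 to 0.83). With names that CDK10 went against, these correlations do not show whether the listed numbers mark shared experiments, which was not tested otherwise.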

Additional observations from a re-analysis of the deposited data

How the results depend on the processing

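With the replicate block, the log2 differences listed as siCDK10 minus mock were 0.10 for CDK10 and -0.035 for ETS2, as without it. Every listed condition holds each replicate number once, so the block could not change these differences. Both fits called 0 genes. The 9 alternatives gave 63 values, of which 57 kept their direction and their side of the threshold. Leaving out 1 library gave -0.14 to 0.31 for CDK10 and -0.21 to 0.084 for ETS2. The reversed values were -0.14 for CDK10 without mock replicate 2, and 0.080, 0.018 and 0.084 for ETS2 without siCDK10 replicate 3, mock replicate 2 and mock replicate 3. The highest of the other 13 differences of CDK10 was -0.0023 (reversed) without mock replicate 2 and up to 0.44 without another library. Centring each library on its median, which moved libraries by up to 0.11, gave 0.039 for CDK10 and -0.098 for ETS2. The cause was not tested. The number of genes called was 0 to 1, the 1 being ENSG00000260274 without mock replicate 2 (log2 difference 3.99, adjusted p = 0.050, Limma), with a maximum of 21 reads. The lowest adjusted p of a member under any alternative was 0.512 (Limma). Depth limits CDK10 most in the libraries with 12 to 29 reads.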

Other observations

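Ordered by ETS2, the widest step between neighbouring libraries (0.15 on the log2 scale) lay above the 10th lowest. The 10 libraries below it were at 4.82 (listed as siJAK2 replicate 1), 4.95 (siGLI1 replicate 1), 5.07 (mock replicate 1), 5.07 (siJAK2 replicate 2), 5.09 (siNFYA replicate 3), 5.09 (siEIF3L replicate 1), 5.13 (siNFYA replicate 2), 5.14 (siCDK10 replicate 3), 5.17 (siPOLR2D replicate 1) and 5.19 (siCCNK replicate 2). The next library, listed as siBEGAIN replicate 3, was at 5.34. This step was noticed in the data and was not tested.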
